A study of Mus musculus with 8 samples.

Results

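The genes described here encode activins, the inhibin subunit that pairs with them, their extracellular antagonists, their receptors and 1 of their signal transducers. They are *Inhba*, *Inhbb*, *Inha*, *Fst*, *Fstl3*, *Acvr1b*, *Acvr2a*, *Acvr2b*, *Tgfbr3* and *Smad3*, 10 of the 54532 genes in the count table. *Inhba* was selected on its steep rise in hyperoxia in these same libraries, so its values are given as a description with no test. The other 9 members were taken in as parts of the same ligand and receptor family. The libraries were bulk RNA-seq of lung endothelial cells (ECs) from wild-type C57BL/6J neonatal mice. In the normoxia group (4 libraries) the pups lived in room air with 21% O2, and in the hyperoxia group (4 libraries) they lived in 80% O2, in both from the day of birth to postnatal day 14. Prolonged hyperoxia after birth is a mouse model of bronchopulmonary dysplasia, the chronic lung disease of preterm infants. Per the methods, leukocytes were removed with CD45 beads and the cells held by CD31 beads were collected as ECs. The number of pups behind a library was not given, so p-values measure only the spread between these libraries.

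Activins are dimers of inhibin beta subunits and belong to the TGF-β superfamily. Activin A is a dimer of the beta A subunit encoded by *Inhba*, activin B a dimer of the beta B subunit encoded by *Inhbb*, and a beta subunit joined to the alpha subunit encoded by *Inha* forms an inhibin, which blocks activin receptors. Activins bind the type II receptors encoded by *Acvr2a* and *Acvr2b*, these recruit the type I receptor ALK4 encoded by *Acvr1b*, and the transcription factors SMAD2 and SMAD3 carry the signal to the nucleus. Follistatin (*Fst*) and follistatin-like 3 (*Fstl3*) bind activins outside the cell, and betaglycan (*Tgfbr3*) helps inhibins to compete for the type II receptors.

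The sequences just upstream of *Inhba*, *Inhbb* and *Smad3* are shown because the beta subunit genes, whose products are built alike, had different patterns between the groups, and because *Smad3* was the other member with a clear rise. They are the 250 bases before each gene's start in the RefSeq annotation of GRCm38.p6, 5′ to 3′ on the strand of the gene, and 8 of the 10 members had an entry in that table. Capitals mark the letters of the motifs found. The motifs searched on both strands were the TATA box (TATAAA), the GC box (GGGCGG), the AP-1 site (TGANTCA), the cAMP response element (TGACGTCA), the SMAD box (CAGAC), the antioxidant response element core (TGACNNNGC) and the p53 half-site. The window of *Inhba* lies at chr13:16011601-16011850 on the plus strand, that of *Inhbb* at chr1:119422249-119422498 on the minus strand and that of *Smad3* at chr9:63757995-63758244 on the minus strand.
Inhba: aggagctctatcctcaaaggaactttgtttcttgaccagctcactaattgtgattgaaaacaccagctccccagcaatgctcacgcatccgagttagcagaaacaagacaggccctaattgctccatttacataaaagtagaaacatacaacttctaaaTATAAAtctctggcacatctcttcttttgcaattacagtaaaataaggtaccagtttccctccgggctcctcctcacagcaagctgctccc
Inhbb: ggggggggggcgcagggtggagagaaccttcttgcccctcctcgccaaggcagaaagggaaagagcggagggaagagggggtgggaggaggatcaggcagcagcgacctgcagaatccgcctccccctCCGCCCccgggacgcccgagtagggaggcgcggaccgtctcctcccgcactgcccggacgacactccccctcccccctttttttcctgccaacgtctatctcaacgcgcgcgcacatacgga
Smad3: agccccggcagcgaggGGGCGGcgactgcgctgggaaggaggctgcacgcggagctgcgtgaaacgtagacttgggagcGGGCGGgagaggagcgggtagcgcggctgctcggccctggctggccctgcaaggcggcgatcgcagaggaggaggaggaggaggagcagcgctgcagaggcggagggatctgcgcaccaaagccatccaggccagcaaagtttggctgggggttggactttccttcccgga
The *Inhba* window held a TATA box from 91 to 86 bases before the start, a motif found in 12.4% of the 32851 promoter windows of the table. Its GC content was 43.2%, against a median of 52.4% over all windows. The *Inhbb* window was richer in GC (68%) and held a GC box from 122 to 117 bases before the start. The *Smad3* window (69.2% GC) held GC boxes from 234 to 229 and from 171 to 166 bases before the start, and 32.7% of all windows held this motif. None of these 3 windows held the letters of the AP-1 site (6.75% of all windows), the cAMP response element (1.55%), the SMAD box (42.2%), the antioxidant response element core (10.2%) or the p53 half-site (7.13%). A match of letters is a description of the window and not a binding site.

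Libraries held 16098086 to 18300730 counts. Levels are in CPM, a gene's count relative to its TMM-normalized library size, and differences as log2 fold changes of hyperoxia relative to normoxia from edgeR's quasi-likelihood test over the 15564 genes that passed a filter on low counts. A gene was said to rise or fall at a Benjamini-Hochberg adjusted p under 0.05 over all of these genes. The pan-endothelial markers (8 genes, among them *Cdh5* and *Pecam1*) summed to 14241 to 15250 CPM in normoxia and 13925 to 14687 CPM in hyperoxia. Endothelial transcripts were thus abundant in every library, as the label of the cells says. Single markers moved within this sum, with 3 of the 8 higher and 3 lower, against 18.5% and 17.1% of all genes tested. *Tek*, 1 of the lower ones, went from a mean of 1180 CPM in normoxia to 680 CPM in hyperoxia. In bulk RNA, fewer cells of a type and less RNA per cell cannot be told apart.

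Of the 10 members, 9 passed the filter and *Fstl3* did not. Apart from *Inhba*, *Smad3* was higher in hyperoxia and *Acvr2a* and *Acvr2b* were lower, while *Inhbb*, *Inha*, *Acvr1b* and *Tgfbr3* did not pass the test. Among all genes tested, 18.5% were higher and 17.1% lower by the same rule. *Fst* met the filter only through the hyperoxia libraries, where it was high. Its entry thus favoured a rise, and its values are given as a description. *Smad3* also had a log2 fold change of at least 1, which 5.62% of all genes reached in that direction. The groups of *Smad3* did not overlap, with hyperoxia higher (17.8% of all genes tested), nor did those of *Acvr2a* and *Acvr2b*, with hyperoxia lower (17.7%). A shift of this kind was common across the transcriptome, and these counts are not a result about the members. Hyperoxia library 3 held the lowest sum of alveolar type 2 markers in its group (735 CPM, against 1941 to 2221 CPM). Without this library, *Smad3* and *Acvr2a* still passed the test and *Acvr2b* did not (edgeR adjusted p = 0.0613). The hyperoxia libraries that remained held more of these markers, so this fit did not test the part of other cells.

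**Figure D1:**
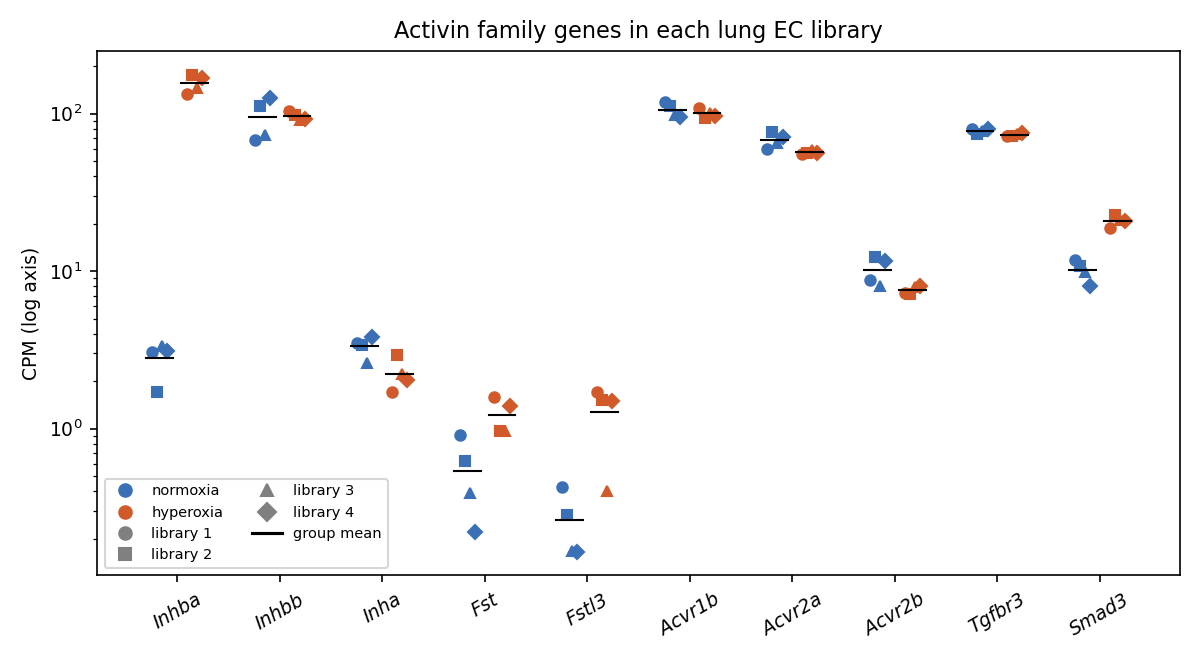
CPM of the 10 members on a log axis, 1 point per library with the library number as its shape, and a black line at the mean of each group of 4. *Inhba* sat at 1.70 to 3.35 CPM in normoxia and at 133 to 177 CPM in hyperoxia, while the groups of *Inhbb* and *Acvr1b* overlapped.

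Among the ligand genes, *Inhba* (ENSMUSG00000041324, chr13:16011851-16031621, plus strand, GRCm38) was at 3.06, 1.70, 3.35 and 3.09 CPM in the normoxia libraries 1 to 4 and at 133, 177, 145 and 168 CPM in the hyperoxia libraries 1 to 4. The groups were far apart, with every hyperoxia library many times above the highest normoxia library. The mean went from 2.80 ± 0.742 to 156 ± 20.1 CPM (mean ± SD, n = 4 each), a ratio of means of 55.7 and a log2 fold change of 5.80 (SE 0.160). These levels rested on 30 to 60 counts per library in normoxia and 2336 to 3131 in hyperoxia. Ranked by FPKM among the 22046 protein-coding genes, *Inhba* stood between places 11743 and 12671 in normoxia and between places 1710 and 2316 in hyperoxia. No exon of another annotated gene overlapped its exons. Its nearest protein-coding neighbours among the genes tested did not share the pattern. *Gli3*, 281825 bases before it, was at 9.30 ± 1.44 CPM in normoxia against 10.3 ± 1.24 CPM in hyperoxia (mean ± SD, n = 4 each, edgeR adjusted p = 0.414), and *Sugct*, 825851 bases after it, was at 0.816 ± 0.110 and 0.863 ± 0.460 CPM (edgeR adjusted p = 0.884).

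*Inhbb* (ENSMUSG00000037035, chr1:119415465-119422248, minus strand) was at 68.2, 112, 73.7 and 125 CPM in normoxia and at 104, 97.5, 91.0 and 91.9 CPM in hyperoxia. All hyperoxia libraries lay inside the range of the normoxia libraries, where libraries 2 and 4 were high and libraries 1 and 3 low. The means were 94.8 ± 28.2 and 96.2 ± 6.21 CPM (mean ± SD, n = 4 each), and the log2 fold change was 0.02 (SE 0.170, edgeR adjusted p = 0.936). The spread between libraries was wider in normoxia, with a coefficient of variation of 29.7% against 6.46% in hyperoxia. *Inha* (ENSMUSG00000032968, chr1:75507077-75510366, plus strand) was at 3.48, 3.41, 2.62 and 3.80 CPM in normoxia and at 1.71, 2.94, 2.23 and 2.05 CPM in hyperoxia. Only normoxia library 3 and hyperoxia library 2 crossed. The mean of *Inha* was 3.33 ± 0.501 CPM in normoxia and 2.23 ± 0.519 CPM in hyperoxia, with a log2 fold change of -0.58 (SE 0.207) that stood just outside the threshold (edgeR adjusted p = 0.0513). It was within the threshold in 6 of 16 alternative analyses.

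Levels of different genes were compared per length, on the FPKM (fragments scaled by gene length and library total) deposited by the authors. In normoxia *Inhbb* was by far the main beta subunit transcript, at 22.1 ± 6.53 FPKM against 0.436 ± 0.117 FPKM for *Inhba* (mean ± SD, n = 4 each). The alpha subunit gene *Inha* was at 2.24 ± 0.337 FPKM. In hyperoxia *Inhba* stood at 24.3 ± 3.17 FPKM beside 22.5 ± 1.42 FPKM for *Inhbb*, which do not differ beyond their spread, and *Inha* was at 1.51 ± 0.355 FPKM. The share of *Inhba* in the summed FPKM of the 3 subunit genes was 1.90 ± 0.841% in normoxia and 50.1 ± 3.89% in hyperoxia. By library it was 2.54, 0.924, 2.67 and 1.49% in normoxia and 44.8, 52.7, 49.9 and 53.3% in hyperoxia. The sum of the beta subunit transcripts was 22.6 ± 6.48 FPKM in normoxia and 46.8 ± 2.902 FPKM in hyperoxia. These shares and sums include *Inhba* and are descriptions.

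**Figure D2:**
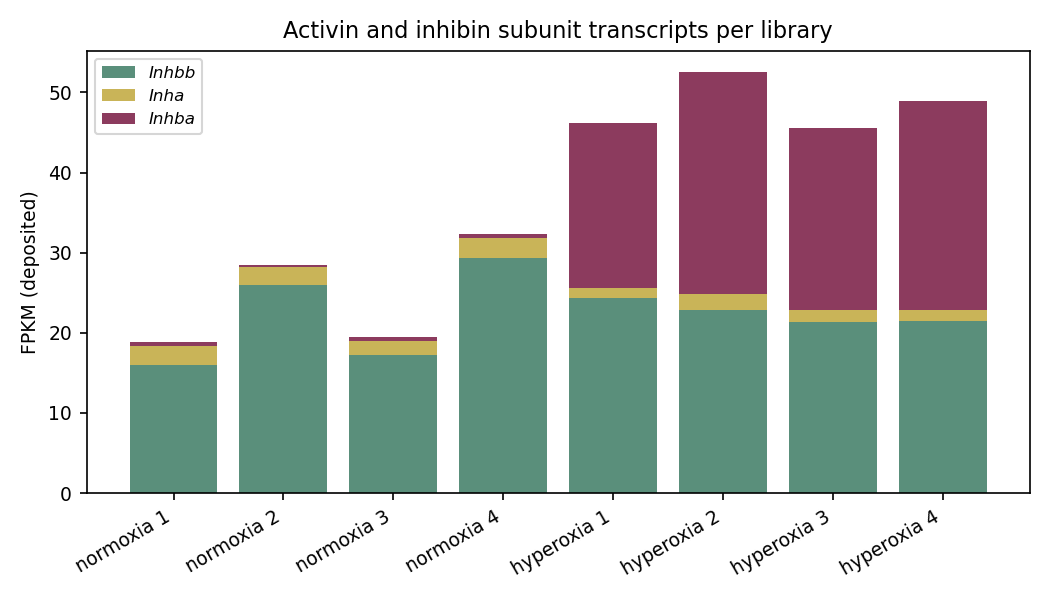
Deposited FPKM of *Inhbb*, *Inha* and *Inhba*, stacked from bottom to top, in each of the 8 libraries. The *Inhba* block is barely visible in normoxia and makes up 44.8 to 53.3% of the column in hyperoxia, on an *Inhbb* block of 21.4 to 24.4 FPKM.

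Both antagonist genes among the members were scarce. *Fst* (ENSMUSG00000021765, chr13:114452290-114458951, minus strand), encoding follistatin, was at 0.917, 0.625, 0.391 and 0.221 CPM in normoxia and at 1.60, 0.961, 0.971 and 1.38 CPM in hyperoxia. The groups did not overlap, but normoxia library 1 came close to hyperoxia libraries 2 and 3. The mean was 0.538 ± 0.302 CPM in normoxia and 1.23 ± 0.315 CPM in hyperoxia, on 4 to 15 counts per library against 17 to 28. *Fstl3* (ENSMUSG00000020325, chr10:79777272-79782630, plus strand), encoding a follistatin relative that also binds activins, was at 0.428, 0.284, 0.168 and 0.165 CPM in normoxia and at 1.71, 1.53, 0.400 and 1.495 CPM in hyperoxia. Hyperoxia libraries 1, 2 and 4 were high and library 3 lay inside the normoxia range, so the groups overlapped. With 3 to 7 counts per library in normoxia and 7 to 30 in hyperoxia, *Fstl3* did not enter the test. Without a filter on low counts its log2 fold change was 2.29 (SE 0.474, edgeR adjusted p = 0.000986). The antisense gene *Prss57* covers 47.3% of the exon bases of *Fstl3*, and it had 0 to 2 counts per library in normoxia and none in hyperoxia.

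The summed FPKM of *Fst* and *Fstl3* was 0.223 ± 0.115 in normoxia and 0.789 ± 0.289 in hyperoxia (mean ± SD, n = 4 each). The ratio of *Inhba* to this sum was 2.48 ± 1.55 in normoxia and 35.6 ± 17.6 in hyperoxia. It is a description, since *Inhba* was chosen for its rise, and the sum rests on few counts. With *Inhbb* added to the numerator, the ratio was 131 ± 90.9 in normoxia and 68.5 ± 33.5 in hyperoxia, and the groups overlapped. Beta subunit transcripts thus outnumbered the summed *Fst* and *Fstl3* transcripts per length in every library. The ratios were 44.0 to 259 in normoxia and 43.3 to 118 in hyperoxia. *Fstl1*, listed below among the other antagonists and co-receptors, is outside this sum. It was at 94.3 ± 5.91 FPKM in normoxia and 130 ± 8.24 FPKM in hyperoxia. Protein was not measured here.

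Of the receptor genes, the type I receptor gene *Acvr1b* (ENSMUSG00000000532, chr15:101174067-101213684, plus strand) was at 118, 111, 98.7 and 95.2 CPM in normoxia and at 109, 94.5, 101 and 96.8 CPM in hyperoxia. The groups overlapped over nearly their whole range. The means were 106 ± 10.8 and 100.4 ± 6.40 CPM, with a log2 fold change of -0.08 (SE 0.0745, edgeR adjusted p = 0.470). It made up nearly all of the summed FPKM of *Acvr1b* and *Acvr1c*, at 99.97 ± 0.0340% in normoxia and 99.97 ± 0.0139% in hyperoxia.

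The type II receptor gene *Acvr2a* (ENSMUSG00000052155, chr2:48814109-48903269, plus strand) was at 59.8, 76.4, 65.2 and 70.9 CPM in normoxia and at 55.3, 56.0, 58.7 and 56.7 CPM in hyperoxia. Every hyperoxia library lay below every normoxia library, although normoxia library 1 was close to the hyperoxia group. *Acvr2a* fell from 68.1 ± 7.18 to 56.7 ± 1.49 CPM (log2 fold change -0.26, SE 0.0710, edgeR adjusted p = 0.0140), and the call held in all 16 alternatives. Antisense exons of *Orc4*, at a mean of 37.1 CPM in normoxia and 32.0 CPM in hyperoxia, overlap 7.84% of the exon bases of *Acvr2a*. The part of *Orc4* reads in this fall was not tested. The other type II receptor gene, *Acvr2b* (ENSMUSG00000061393, chr9:119402118-119434995, plus strand), was at 8.74, 12.3, 8.10 and 11.6 CPM in normoxia and at 7.30, 7.18, 7.89 and 8.03 CPM in hyperoxia. The groups did not overlap, with normoxia libraries 1 and 3 only just above hyperoxia. *Acvr2b* fell from 10.2 ± 2.09 to 7.60 ± 0.422 CPM (log2 fold change -0.43, SE 0.146, edgeR adjusted p = 0.0429), and 9 of 16 alternatives put it outside the threshold, 6 of them by leaving out 1 library (without normoxia library 2, 0.114, or 4, 0.117, and without hyperoxia library 1, 0.0878, 2, 0.103, 3, 0.0613, or 4, 0.0651). Per length, *Acvr2a* made up 82.3 ± 1.81% of the summed FPKM of *Acvr2a* and *Acvr2b* in normoxia and 83.8 ± 0.575% in hyperoxia. Both genes thus kept about the same proportion to each other.

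The betaglycan gene *Tgfbr3* (ENSMUSG00000029287, chr5:107106570-107289629, minus strand) was at 80.4, 73.7, 78.0 and 80.3 CPM in normoxia and at 71.9, 72.4, 73.9 and 75.8 CPM in hyperoxia. The hyperoxia libraries sat at the low end, and normoxia library 2 fell among them. The means were 78.1 ± 3.13 and 73.5 ± 1.74 CPM, and the log2 fold change of -0.09 (SE 0.0453) did not pass the test (edgeR adjusted p = 0.157). In order of FPKM in normoxia, the receptor genes stood as *Acvr1b* (23.8 ± 2.42), then *Tgfbr3* (11.9 ± 0.519) and *Acvr2a* (11.9 ± 1.21), which did not differ beyond their spread, then *Acvr2b* (2.58 ± 0.521). In hyperoxia the order was *Acvr1b* (22.7 ± 1.40), *Tgfbr3* (11.2 ± 0.264), *Acvr2a* (9.93 ± 0.281) and *Acvr2b* (1.93 ± 0.107).

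Of the 2 transcription factor genes that receive the activin signal, *Smad3* (ENSMUSG00000032402, chr9:63646767-63757994, minus strand) was at 11.7, 10.9, 9.94 and 7.996 CPM in normoxia and at 18.8, 22.8, 21.0 and 20.8 CPM in hyperoxia. The groups were clearly separate, with a coefficient of variation of 15.8% in normoxia and 7.92% in hyperoxia. *Smad3* rose from 10.1 ± 1.60 to 20.8 ± 1.65 CPM (log2 fold change 1.04, SE 0.118, edgeR adjusted p = 7.59e-05), and the call held in all 16 alternatives. *Smad2*, the other of the pair, was at 56.1 ± 4.05 CPM in normoxia against 51.0 ± 2.66 CPM in hyperoxia (log2 fold change -0.14, SE 0.0629, edgeR adjusted p = 0.115). The ratio of *Smad3* to *Smad2* in FPKM was 0.116 ± 0.0211 in normoxia and 0.261 ± 0.0114 in hyperoxia, so *Smad2* remained the more abundant transcript in every library.

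Several members and other genes varied together within the normoxia group. Normoxia libraries 2 and 4 held more *Inhbb*, *Acvr2a* and *Acvr2b* than libraries 1 and 3. The convertase gene *Pcsk5* showed the same split, at 264 and 269 CPM in libraries 2 and 4 against 200.1 and 206 CPM in libraries 1 and 3. The summed markers of general capillary ECs (3 genes) were at 2002 and 2034 CPM in libraries 2 and 4 and at 1846 and 1842 CPM in libraries 1 and 3, and those of aerocyte capillary ECs (5 genes) were at 993 and 1157 CPM against 1243 and 1372 CPM. Their part in the levels of the members was not tested.

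The rest of the pathway was read from 6 lists with 45 genes beside the members, of which 30 passed the filter. Of these, 11 were higher in hyperoxia, 8 were lower and 11 did not pass the test, where 18.5% of all genes tested were higher and 17.1% lower. Their median log2 fold change was -0.06, against -0.00402 over all genes tested. The groups of libraries did not overlap for 11 higher and 7 lower genes, as was so for 17.8% and 17.7% of all genes tested. The pathway genes thus went both ways.

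**Figure D3:**
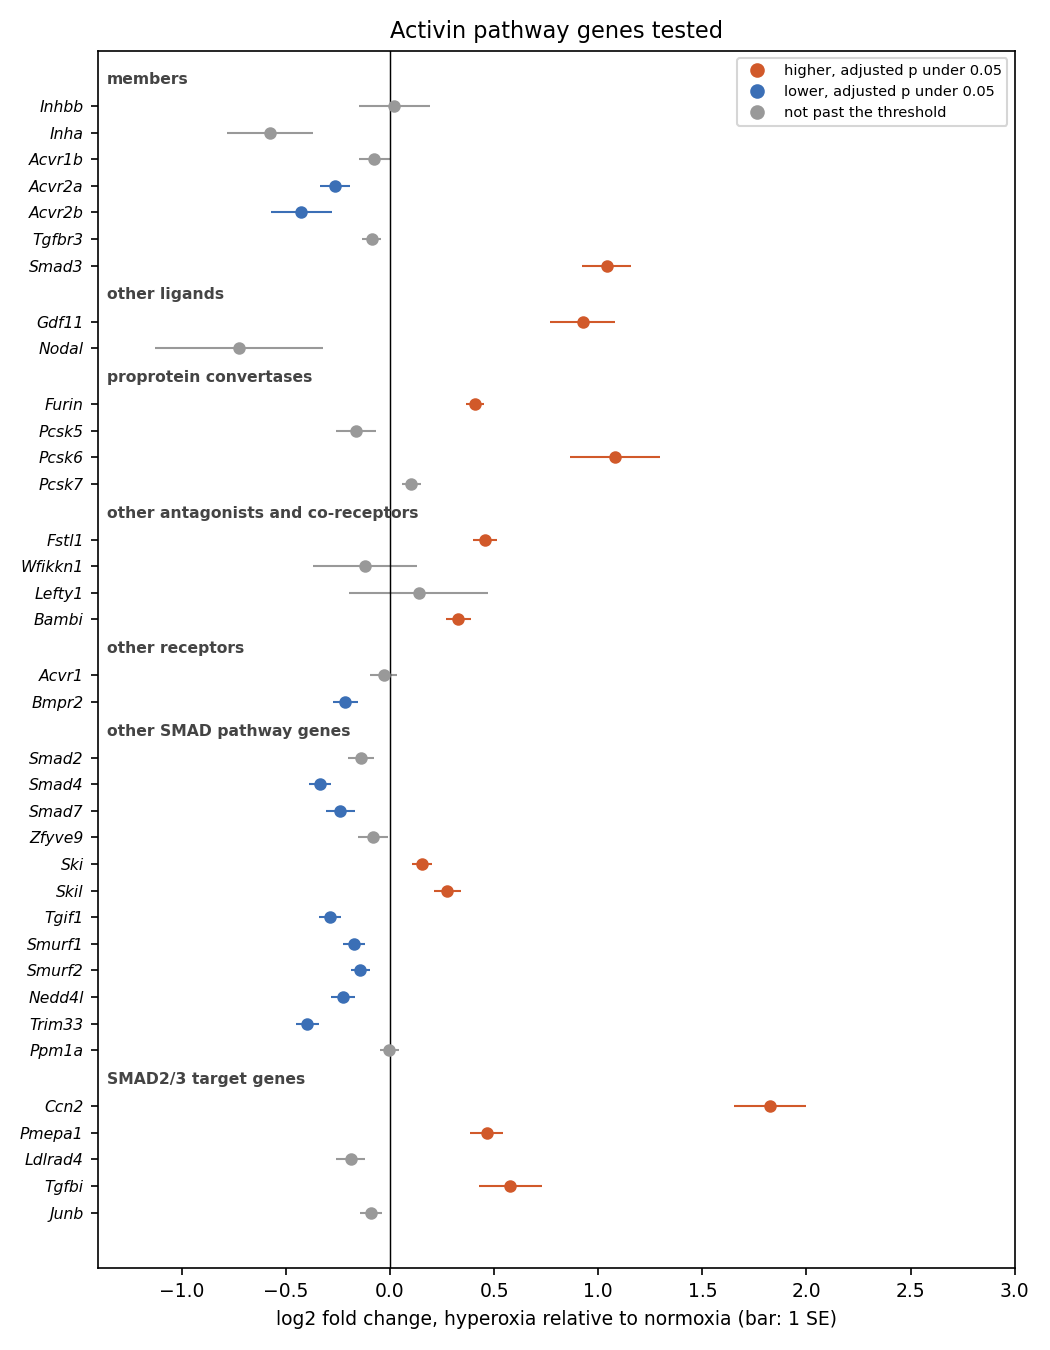
Log2 fold change of hyperoxia relative to normoxia, with bars of 1 SE, for the members tested other than *Inhba* and *Fst* and for other pathway genes tested, by list. *Ccn2* (1.82) lies farthest to the right of the genes drawn, and the 12 genes of the SMAD list lie between -0.40 and 0.28.

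Among the other ligands of activin receptors, *Gdf11*, which signals through the type II receptors, rose. It was at 2.81, 3.69, 3.80 and 3.86 CPM in normoxia and at 5.64, 7.92, 6.69 and 6.70 CPM in hyperoxia, with a log2 fold change of 0.92 (SE 0.155, edgeR adjusted p = 0.000988). *Nodal* was at 1.22 ± 0.276 and 0.734 ± 0.442 CPM and did not pass the test (edgeR adjusted p = 0.190). *Inhbc*, *Mstn*, *Gdf1*, *Cfc1* and *Fstl5* had no count in any library, which allows up to 0.186 CPM in the smallest library.

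Activin precursors are cut by proprotein convertases, and 2 of the 4 convertase genes rose, where 18.5% of all genes tested were higher. *Furin* went from 135 ± 3.68 to 179 ± 6.22 CPM (log2 fold change 0.41, SE 0.0429, edgeR adjusted p = 4.57e-05). *Pcsk6* went from 3.30 ± 0.638 to 6.97 ± 1.75 CPM (log2 fold change 1.08, SE 0.216, edgeR adjusted p = 0.00287). *Pcsk5* was at 235 ± 36.8 and 209 ± 7.11 CPM and did not pass the test (edgeR adjusted p = 0.207).

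Of the 4 tested genes among the other antagonists and co-receptors, *Fstl1* and *Bambi* rose, against 18.5% of all genes tested. *Fstl1*, a secreted protein of the follistatin family, went from 466 ± 27.6 to 640 ± 39.8 CPM (log2 fold change 0.46, SE 0.0597, edgeR adjusted p = 0.000197). *Bambi*, a pseudoreceptor that dampens TGF-β and activin signals, went from 29.1 ± 1.64 to 36.6 ± 1.43 CPM (log2 fold change 0.33, SE 0.0590, edgeR adjusted p = 0.00149). Of the other receptors, *Bmpr2*, a type II receptor mainly of bone morphogenetic proteins, fell from 1395 ± 118 to 1203 ± 31.3 CPM (log2 fold change -0.21, SE 0.0606, edgeR adjusted p = 0.0182), a call lost without hyperoxia library 4 (0.0539). *Acvr1* was at 67.6 ± 5.49 and 66.1 ± 3.34 CPM (edgeR adjusted p = 0.745).

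In the list of other SMAD pathway genes, 2 of 12 tested rose and 7 fell, against 18.5% and 17.1% of all genes tested. None of the 12 reached a log2 fold change of 1. *Smad4*, the partner that SMAD2 and SMAD3 share, fell from 131 ± 5.46 to 104 ± 6.01 CPM (log2 fold change -0.34, SE 0.0530, edgeR adjusted p = 0.000670). *Smad7*, an inhibitor of the pathway, fell from 249 ± 24.2 to 211 ± 11.6 CPM (log2 fold change -0.24, SE 0.0704, edgeR adjusted p = 0.0220). This call was lost without normoxia library 1 (0.0516) or hyperoxia library 1 (0.0592). *Trim33*, a ubiquitin ligase of the pathway, fell by 0.40 on the log2 scale (SE 0.0537), and the corepressor gene *Tgif1* fell by 0.29 (SE 0.0512). The ubiquitin ligase genes *Smurf1*, *Smurf2* and *Nedd4l* fell by 0.17, 0.14 and 0.22. The SMAD corepressor genes *Ski* and *Skil* rose by 0.16 (SE 0.0489) and 0.28 (SE 0.0649). The calls of 3 of these genes with small differences rested on single libraries. That of *Smurf1* was lost without normoxia library 2 or 4 or hyperoxia library 1 or 2 (edgeR adjusted p = 0.0678, 0.0846, 0.0839 and 0.0720). That of *Smurf2* was lost without normoxia library 1, 2 or 4 or hyperoxia library 1, 2 or 3 (0.0663, 0.0625, 0.0830, 0.103, 0.0741 and 0.0856), and that of *Ski* without normoxia library 3 or 4 or hyperoxia library 2, 3 or 4 (0.0726, 0.0767, 0.0921, 0.0541 and 0.0611).

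Of 10 tested genes that SMAD2 and SMAD3 are known to induce, 6 were higher and 2 were lower in hyperoxia, against 18.5% and 17.1% of all genes tested. *Ccn2* (listed as *Ctgf*), encoding connective tissue growth factor, was at 75.4, 63.2, 63.8 and 53.6 CPM in normoxia and at 321, 203, 182 and 201 CPM in hyperoxia, with library 1 well above the rest. Its log2 fold change was 1.82 (SE 0.172, edgeR adjusted p = 2.06e-05), and the antisense gene *Gm15270*, at a mean of 0.599 CPM in normoxia and 1.002 CPM in hyperoxia, overlaps 23.2% of its exon bases. *Pmepa1*, an inhibitor of SMAD signals, rose from 43.9 ± 3.87 to 60.6 ± 4.94 CPM (log2 fold change 0.46, SE 0.0773). *Tgfbi*, a matrix protein gene, rose from 31.2 ± 7.64 to 46.6 ± 5.10 CPM (log2 fold change 0.58, SE 0.152). *Skil* and *Bambi*, which also belong to other lists, were higher too, and *Smad7* and *Tgif1* were the lower ones. *Junb* was at 1110.5 ± 71.7 and 1042 ± 37.0 CPM (edgeR adjusted p = 0.222). These target genes also answer to TGF-β and to other signals.

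Markers of other lung cells moved with the groups. Among all genes tested, 18.5% were higher and 17.1% lower. All 6 alveolar type 2 markers were higher in hyperoxia, with a sum of 228 to 320 CPM in normoxia and 735 to 2221 CPM in hyperoxia, and all 4 alveolar type 1 markers were higher, with sums of 66.1 to 78.7 and 120 to 314 CPM. Of the 5 fibroblast markers tested, *Col1a1* and *Col1a2* were higher (sums of 59.3 to 105 and 86.5 to 234 CPM). *Dcn* also passed the test but met the filter only through its hyperoxia level, so its rise is a description. Of the mural and myofibroblast markers 6 of 7 were higher (sums of 23.4 to 47.8 and 45.1 to 106 CPM). The groups of *Col1a2*, *Pdgfrb* and *Notch3* overlapped. Leukocyte markers summed to 115 to 212 CPM in normoxia and 114 to 184 CPM in hyperoxia. Of these 6 markers, 1 was higher (*Marco*, with overlapping groups) and 1 lower. Mesothelial markers summed to at most 1.99 CPM in any library. Among ECs, the 5 aerocyte markers were all higher (993 to 1372 against 2196 to 2622 CPM), although the groups of *Ednrb* overlapped. The 3 general capillary markers were all lower (1842 to 2034 against 862 to 1081 CPM). The part of all these cells in the levels of the members was not tested.

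Hyperoxia library 3 differed from the other hyperoxia libraries in these markers, with a sum of alveolar type 2 markers at 34.7% of their mean. *Inhba* in this library was at 91.3% of the mean of the other hyperoxia libraries, and *Smad3*, at 21.0 CPM, lay between them. *Fstl3* in this library was at 25.4% of their mean. The part of other cells in these levels was not tested.

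**Figure D4:**
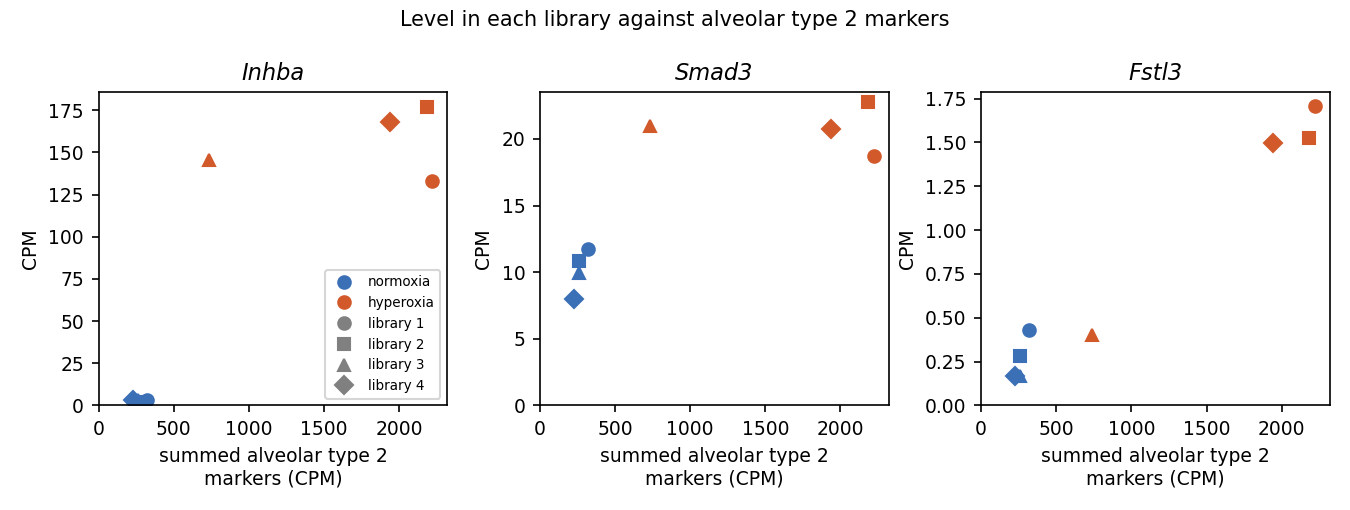
CPM of *Inhba*, *Smad3* and *Fstl3* (vertical axes) against the summed CPM of 6 alveolar type 2 markers (horizontal axes), 1 point per library. Hyperoxia library 3, the triangle at 735 CPM of marker transcripts, lies level with the other hyperoxia libraries for *Inhba* and *Smad3* and near the normoxia libraries for *Fstl3*.

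The genes whose pattern over the 8 libraries was most like that of *Inhba* were found as the smallest root mean square difference of centred log2 CPM among 12660 protein-coding genes. *Eda2r*, a receptor of the tumour necrosis factor receptor family, was nearest (0.539), at 1.92 ± 0.685 CPM in normoxia against 78.1 ± 8.64 CPM in hyperoxia. *Zfp365* (0.565) was at 0.465 ± 0.334 and 20.3 ± 4.01 CPM, and *Ano3* (0.580), of the anoctamin family, at 0.256 ± 0.189 and 19.99 ± 1.93 CPM. *Olfr1318* (0.838), an olfactory receptor gene, had no count in normoxia and was at 2.07 ± 0.394 CPM in hyperoxia. *Tpsb2* (0.956), a mast cell tryptase gene, was at 0.0279 ± 0.0558 and 2.13 ± 0.596 CPM. This likeness rests on the difference between the groups, by which *Inhba* was chosen.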

How the data were processed

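Bulk RNA-seq was performed on CD31-selected lung ECs, 4 normoxia and 4 hyperoxia libraries, grouped by their titles. Libraries were read as paired ends of 150 bases on a NovaSeq 6000 per the study's methods. The submitters' processing notes name HISAT2 2.0.5, featureCounts 1.5.0-p3 and genome build mm10. The use of strand and the handling of reads matching several genes are not given in the sources used here. The authors deposited whole-number gene counts and FPKM values, the latter scaled by gene length and library total, for 54532 genes in 8 libraries.

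Counts were tested with edgeR 4.0.16 (quasi-likelihood test, TMM normalization, filterByExpr at its defaults, group as the only term) in R 4.3.3, with Benjamini-Hochberg adjustment over the 15564 genes kept. The study had used DESeq2, which was run as an alternative (version 1.42.0), as was limma 3.58.1 on log2 FPKM with a pseudocount of 0.1 or 1. Other alternatives were other normalizations, other filters, the replicate number as a block and leaving out each library. Standard errors follow from the F statistic. Tables were made with Python 3.11.15, pandas 2.3.3 and numpy 2.4.6, and exon overlaps with GENCODE M21. Only the main edgeR fit was tested on simulated counts, in which far fewer genes changed than were called in these data. Total counts ran from 16098086 to 18300730, and libraries of a group differed by more than counting noise. FPKM served only to compare levels between genes and as an alternative.

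The members and gene lists were chosen with earlier results of these data known. Named were all members, genes of the pathway lists with an adjusted p under 0.05 and a mean of at least 1 CPM or among the 2 most abundant tested genes of their list, and the 5 protein-coding genes of at least 1 CPM nearest to *Inhba*. The values of 1 gene in the pathway lists are not reported here, although the counts over the lists include it. *Smad2* and the genes with no count were named outside this rule, after their values were seen, as were neighbours and overlapping genes.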

Additional observations from a re-analysis of the deposited data

Results flagged for a closer look

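In 6 of 94 groups of 4 libraries examined, 1 library lay far from the other 3 by Dixon's criterion, where chance gives about 1 in 20 (4.7). *Fstl3* was at 0.400 CPM in hyperoxia library 3 and at 1.495 to 1.71 CPM in the other hyperoxia libraries. *Gdf11* was at 2.81 CPM in normoxia library 1 and at 3.69 to 3.86 CPM in the others. *Ccn2* was at 321 CPM in hyperoxia library 1 and at 182 to 203 CPM in the others. *Tpsb2* was at 0.112 CPM in normoxia library 3 and had no count in the other normoxia libraries. Normoxia library 1 held 105 CPM of summed fibroblast markers, against 59.3 to 65.7 CPM in the others, and 47.8 CPM of summed mural and myofibroblast markers, against 23.4 to 27.5 CPM.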

How the results depend on the processing

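Among 16 alternatives, *Smad3* and *Acvr2a* kept their direction and their side of the threshold in all, and the log2 fold change of *Inhba* ran from 4.13 (limma on log2(FPKM + 1)) to 5.89. *Fst* and *Fstl3* are left out of the count of higher members, since the filter takes them in through their hyperoxia level. Besides these and *Inhba*, *Smad3* was the only higher member in every alternative. A filter of at least 1 CPM on average leaves *Fst* untested, and *Fstl3* was tested in only some of the fits. The 2 lower members ran from 1 (without normoxia library 2 or 4, or hyperoxia library 1, 3 or 4) to 3, and the 8 lower pathway genes from 5 (without hyperoxia library 1) to 9. The log2 fold change of *Inhbb* ran from -0.11 to 0.18 when 1 library was left out (-0.11, -0.08 and -0.02 without normoxia library 1, normoxia library 3 and hyperoxia library 1), and that of *Acvr1* from -0.086 to 0.0061 (0.0061 without normoxia library 2). The cause was not tested. The deviations of same-numbered libraries correlated at 0.119, 0.0361, -0.125 and -0.140, within the range of different-numbered ones (-0.247 to 0.279). This gave no sign that the numbers pair the samples but cannot exclude it. With the replicate block, 1 member was lower (*Acvr2b* was lost, adjusted p = 0.0701) and 5 pathway genes were lower (*Smad7*, *Smurf1* and *Smurf2* were lost, 0.0616, 0.0539 and 0.0654), while *Ski* (0.0593) was no longer higher. With low counts, *Fst* and *Fstl3* are the members whose values depth limits most.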
